A study of Rattus norvegicus with 16 samples.

Results

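The small leucine-rich proteoglycans are secreted matrix proteins built around a run of leucine-rich repeats, and the 10 genes described here were taken by name: Dcn, Bgn and Aspn of class I, Fmod, Lum, Prelp, Kera and Omd of class II, and Ogn and Epyc of class III. All 10 of the 10 genes had a row on the array, among 17245 genes tested. Each gene was read from its brightest row, a choice that arose among these 10 genes for Aspn alone. Expression was measured in RNA from cells that stuck to commercially pure titanium implants in the tibiae of 8 male Sprague Dawley rats, whose age the labels do not give. AT-I implants carried nanoscale features, AT-II implants were microrough without them, and each rat had a pair of AT-I implants in one tibia and a pair of AT-II implants in the other, each pair giving 1 RNA sample. Implants came out at day 2 or day 4 after surgery, with 4 rats per day, which gave 16 arrays, 4 for each of the 4 combinations of surface and day. Implants were rinsed before lysis, so each sample is the mixed population that still adhered. In such bulk samples fewer cells of a type and less RNA per cell cannot be told apart.

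The leucine-rich repeats of these proteins form a curved surface that binds collagen, and the family is known for setting the diameter and spacing of collagen fibrils. Most members carry sugar chains on the core protein, chondroitin or dermatan sulphate in decorin and biglycan and keratan sulphate in fibromodulin, lumican, keratocan and osteomodulin. Several also bind growth factors of the TGF-beta family, and decorin, biglycan, osteomodulin and osteoglycin are established components of bone matrix.

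Promoter sequence is shown for members that differed most between the days and for those holding one of 4 short motifs, so that the sequence ahead of genes that rose together can be read beside their values. RefSeq windows of 250 bases ahead of the annotated start (build GRCr8) were found for 7 of the 10 members, namely Aspn, Omd, Ogn, Fmod, Lum, Kera and Epyc. Both strands were searched for ACCACA, the core of RUNX binding sites, for TGANTCA, the AP-1 site, for GGAATG, the core of TEAD binding sites, and for TATAAA, the core promoter box named after its letters. ACCACA lay in 3 of the 7 windows (Ogn, Lum and Epyc), against 14.1% of 27457 windows. GGAATG and TATAAA lay in 1 of the 7 each, both in Ogn, against 11.8% and 13.1% of all windows, and TGANTCA in 0 of 7, against 6.36%. In Ogn the ACCACA match lay 63 to 58 bases and the GGAATG match 84 to 79 bases ahead of the start, and its pair of TATAAA matches, 1 per strand, overlapped each other at 224 to 217 bases. The Lum match lay 176 to 171 bases and the Epyc match, as TGTGGT, 36 to 31 bases ahead. Sequences below run 5′ to 3′ on the strand of the gene, with motif matches in capitals. Where a window overlapped the annotated gene only a stretch is given, 30 bases around the matches for Ogn and Lum and 152 bases for Aspn.
Ogn (chr17.0:15259050-15259079, minus strand): GGAATGttggccaggacttccACCACAtgg
Lum (chr7.0:34245518-34245547, plus strand): ctcagaggcaacACCACAagagcccacagt
Epyc (chr7.0:34323082-34323331, plus strand): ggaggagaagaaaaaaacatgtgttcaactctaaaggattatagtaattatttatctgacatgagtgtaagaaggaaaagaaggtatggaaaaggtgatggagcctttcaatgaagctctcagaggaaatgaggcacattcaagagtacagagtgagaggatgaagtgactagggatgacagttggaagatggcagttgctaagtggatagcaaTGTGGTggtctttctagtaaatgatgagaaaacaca
Aspn (chr17.0:15310568-15310719, minus strand): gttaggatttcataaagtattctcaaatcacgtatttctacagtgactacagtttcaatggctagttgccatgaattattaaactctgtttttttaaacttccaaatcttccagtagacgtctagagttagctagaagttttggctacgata
Omd (chr17.0:15274871-15275120, minus strand): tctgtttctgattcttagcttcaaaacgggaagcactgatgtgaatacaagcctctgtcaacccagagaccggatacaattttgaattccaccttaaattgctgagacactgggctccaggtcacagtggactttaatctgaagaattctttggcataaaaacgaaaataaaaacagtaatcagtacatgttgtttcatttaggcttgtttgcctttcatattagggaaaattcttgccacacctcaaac
Fmod (chr13.0:48045317-48045566, plus strand): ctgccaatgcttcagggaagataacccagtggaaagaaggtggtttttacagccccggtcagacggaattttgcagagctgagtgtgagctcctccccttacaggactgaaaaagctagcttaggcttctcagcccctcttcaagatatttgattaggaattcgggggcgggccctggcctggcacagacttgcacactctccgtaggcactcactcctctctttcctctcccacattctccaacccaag
Ogn and Epyc both held an ACCACA match, although Ogn rose from day 2 to day 4 and Epyc had adjusted p = 0.581 and 0.995 on AT-I and AT-II. The printed stretch of Aspn and the windows of Omd and Fmod held 0 matches to the 4 motifs. A match is a description of letters only, and binding was not measured.

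Values are log2 expression as deposited, each gene is compared with itself across groups, and precision is limited by how many arrays there are. Of 120 pairs of arrays, replicates 2 and 3 of AT-II day 2 agreed most closely. The SD of their difference over the most variable rows was 0.109, against at least 0.294 elsewhere, and the members differed between them by at most 0.25 (Kera). Their mean stands for 1 sample, which leaves n = 3 on AT-II at day 2 and 15 samples in the limma fit. By the design each sample of a group came from a different rat, replicates 2 and 3 of AT-II day 2 included. Why those arrays agreed so closely was not tested. The rats of a day carried both surfaces, so the day comparisons on AT-I and AT-II are not independent. The labels do not tie a replicate number to a rat. The limma p-values set each difference against the spread between samples within groups, and the fit takes the samples as independent. The interquartile range of array values was 2.67 ± 0.222 (SD, n = 4) for AT-I day 2, 3.22 ± 0.182 (n = 3) for AT-II day 2, 3.04 ± 0.349 (n = 4) for AT-I day 4 and 3.26 ± 0.164 (n = 4) for AT-II day 4. Of the genes called at a Benjamini-Hochberg adjusted p under 0.05, 76.9% were higher at day 4 on AT-I and 93.9% on AT-II. With each array centred on its median these shares were 39.7% and 72.2%, and the median change over all genes went from -0.05 to -0.21 on AT-I and from -0.05 to -0.16 on AT-II.

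The comparison of the days asked how expression in adherent cells moved as the implant site healed. From day 2 to day 4, 7 of the 10 genes rose on AT-I (Dcn, Bgn, Aspn, Fmod, Lum, Omd and Ogn), where 8.84% of all genes rose, 2.66% fell and 11.5% were called in either direction. On AT-II 6 of 10 rose (the same without Lum), where 3.13% of all genes rose, 0.203% fell and 3.33% were called in either direction. No member fell on either surface. The median change of the 10 genes was 1.93 on AT-I and 1.42 on AT-II, beside -0.05 over all 17245 genes on each surface. Prelp, Kera and Epyc did not pass on either surface. The AT-I count stayed between 7 and 8 with any 1 sample left out. The AT-II count was less stable: with AT-II day 2 replicate 1 left out, 3 rose (Aspn, Omd and Fmod), where 1.29% of all genes were called in either direction, and with the averaged sample left out 4 did (Aspn, Omd, Dcn and Fmod), where 1.7% were. It was 8 with array weights (7.12% of all genes).

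**Figure D1:**
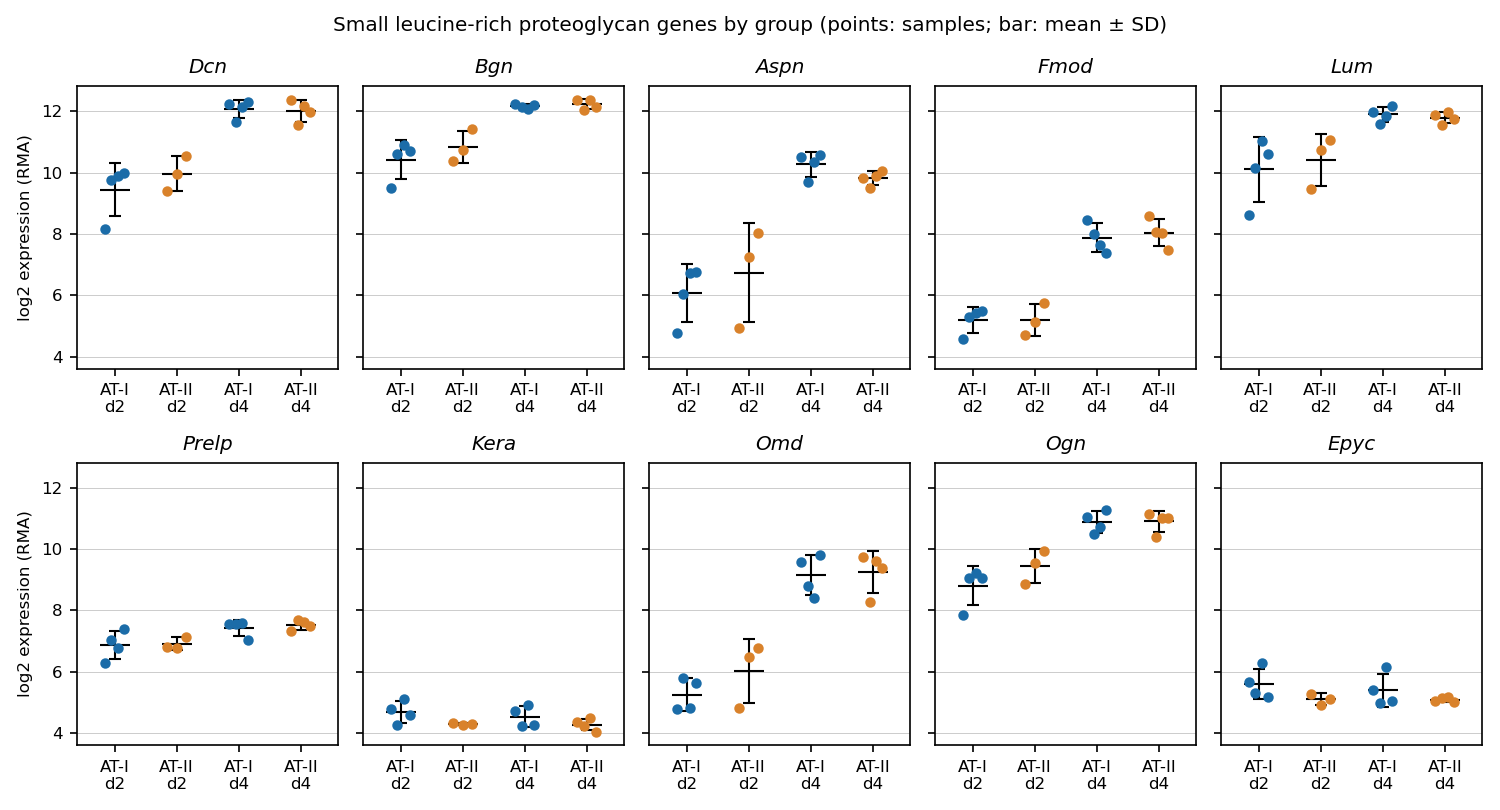
Log2 expression (RMA) of the 10 genes in each group, 1 panel per gene, with points for the 15 samples, the wide bar for the mean and error bars for the SD (d2, day 2; d4, day 4). In Dcn, Bgn, Aspn, Fmod, Lum, Omd and Ogn the day 4 points lie above all day 2 points of the same surface, while Kera and Epyc stay between 4.03 and 6.29 in every group.

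Among class I genes, decorin (Dcn) binds fibrillar collagen and holds TGF-beta in the matrix. Its values on AT-I were 8.15, 9.75, 9.89 and 9.98 at day 2 and 12.23, 11.66, 12.15 and 12.31 at day 4. On AT-II they were 9.40, 9.97 and 10.54 at day 2 and 12.38, 11.54, 12.18 and 11.98 at day 4. The days did not overlap on either surface, and replicate 1 was the low sample of AT-I day 2. Dcn rose by 2.65 ± 0.35 (SE, n = 4 and 4, adjusted p = 0.000173, limma) on AT-I, a 6.27-fold change, and by 2.05 ± 0.38 (n = 4 and 3, adjusted p = 0.00555) on AT-II, a 4.13-fold change. Without AT-II day 2 replicate 1 the AT-II rise was 1.76 and did not pass (adjusted p = 0.0527).

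Biglycan (Bgn) is the close relative of decorin that can also act on Toll-like receptors when released from the matrix. On AT-I it was at 9.49, 10.60, 10.90 and 10.70 at day 2 and at 12.24, 12.13, 12.09 and 12.22 at day 4, and on AT-II at 10.39, 10.73 and 11.42 and then at 12.38, 12.05, 12.38 and 12.13. Every day 4 sample stood above every day 2 sample of its surface, and the SD on AT-I went from 0.64 to 0.07. The rise was 1.75 ± 0.26 (adjusted p = 0.000446, limma) on AT-I and 1.39 ± 0.28 (adjusted p = 0.0102) on AT-II. The AT-II call ended when AT-II day 2 replicate 1 was left out (1.16, adjusted p = 0.0913) and when the averaged sample was (1.33, adjusted p = 0.0597).

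Asporin (Aspn) is a class I protein with a run of aspartate residues and no glycosaminoglycan chain, known from periodontal ligament and other collagen-rich tissues. Its values on AT-I were 4.77, 6.04, 6.73 and 6.76 at day 2 and 10.51, 9.68, 10.34 and 10.57 at day 4. On AT-II they were 4.93, 7.26 and 8.02 at day 2 and 9.82, 9.50, 9.90 and 10.05 at day 4. In the row used the days did not overlap on either surface, and both day 2 samples numbered 1 were the low ones. The day 2 samples of AT-II were widely scattered, with an SD of 1.61. Aspn rose by 4.20 ± 0.53 (adjusted p = 0.000125, limma), or 18.3-fold, on AT-I, and by 3.08 ± 0.57 (adjusted p = 0.00592), or 8.46-fold, on AT-II. In the row used, these were the 2nd and 7th largest rises among all genes tested. That row was chosen by its mean over all arrays, which its day 4 values raised. Without AT-II day 2 replicate 1 the AT-II rise was 2.18 and still passed.

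The other array row of Aspn did not show this pattern. It had means of 8.17 ± 0.25 (SD, n = 4) on AT-I and 8.02 ± 0.06 (n = 3) on AT-II at day 2, and of 8.07 ± 0.14 and 8.07 ± 0.12 (n = 4 each) at day 4. Its day 4 minus day 2 differences were -0.11 on AT-I and 0.05 on AT-II. The row used had the lower means at day 2, 6.07 on AT-I and 6.74 on AT-II. It had the higher means only at day 4, 10.27 and 9.82, so choosing the brightest row favoured the row that rose. With the mean of both rows the group means were 7.12 ± 0.57 and 7.38 ± 0.81 at day 2 and 9.17 ± 0.25 and 8.94 ± 0.12 at day 4, in the order AT-I and AT-II. That mean rose by 2.04 (adjusted p = 0.000385, limma) on AT-I and by 1.56 (adjusted p = 0.0113) on AT-II. The change was 2.04 against 4.20 on AT-I and 1.56 against 3.08 on AT-II, and both versions passed.

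**Figure D2:**
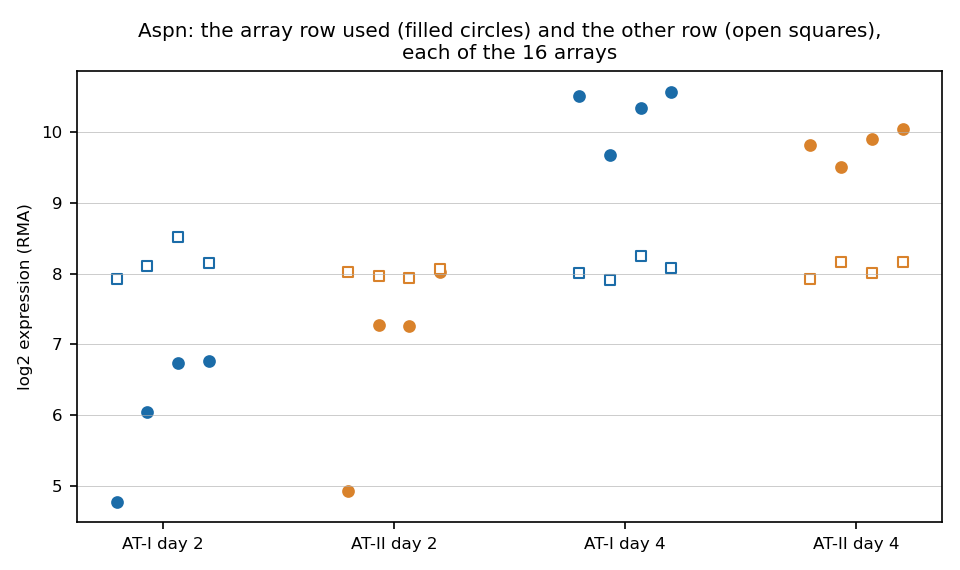
Log2 expression (RMA) of both Aspn rows on each of the 16 arrays, grouped by surface and day (blue, AT-I; orange, AT-II), with filled circles for the row used and open squares for the other row. The circles run from 4.77 to 8.02 at day 2 and from 9.50 to 10.57 at day 4, while the squares stay between 7.91 and 8.51 throughout.

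Osteomodulin (Omd), also called osteoadherin, is a keratan sulphate proteoglycan of mineralised tissue. It was at 4.77, 5.79, 4.81 and 5.63 on AT-I at day 2 and at 9.58, 8.79, 8.41 and 9.82 at day 4. On AT-II it was at 4.83, 6.48 and 6.78 at day 2 and at 9.75, 8.27, 9.60 and 9.40 at day 4. All day 4 samples exceeded all day 2 samples. Omd rose by 3.90 ± 0.44 (adjusted p = 6.06e-05, limma), or 14.9-fold, on AT-I and by 3.22 ± 0.47 (adjusted p = 0.000911), or 9.34-fold, on AT-II, ranking 4th and 6th among all genes.

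Fibromodulin (Fmod) binds collagen and steers its cross-linking. It stood at 4.59, 5.30, 5.41 and 5.49 on AT-I at day 2 and at 8.46, 8.01, 7.65 and 7.38 at day 4. On AT-II it stood at 4.70, 5.12 and 5.75 at day 2 and at 8.59, 8.07, 8.04 and 7.48 at day 4. The days were apart by more than the spread of either, and replicate 1 was the low sample of each day 2 group. The rise was 2.68 ± 0.29 (adjusted p = 4.36e-05, limma) on AT-I and 2.86 ± 0.31 (adjusted p = 9.41e-05) on AT-II, or 6.39-fold and 7.24-fold. Aspn, Omd and Fmod passed under all 26 other settings on both surfaces. For Aspn each of these settings held the row that rose, alone or in the mean of both rows. The other Aspn row, with differences of -0.11 on AT-I and 0.05 on AT-II, was not fitted alone, so these settings do not test the choice of row.

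Lumican (Lum), the keratan sulphate proteoglycan that spaces collagen fibrils in the cornea and occurs widely in connective tissue, was at 8.62, 10.16, 11.04 and 10.61 on AT-I at day 2 and at 11.98, 11.59, 11.85 and 12.16 at day 4. On AT-II it was at 9.46, 10.74 and 11.06 at day 2 and at 11.88, 11.55, 11.97 and 11.76 at day 4. The days did not overlap, but the day 2 samples were widely scattered, with SDs of 1.05 and 0.85. Lum rose by 1.79 ± 0.41 on AT-I (adjusted p = 0.0106, limma), a call that ended with the array interquartile range as a covariate (1.68, adjusted p = 0.0517). On AT-II the difference was 1.37 ± 0.45 (adjusted p = 0.135). It passed when AT-I day 2 replicate 1 was left out (1.37, adjusted p = 0.0177) and with array weights (1.16, adjusted p = 0.0243).

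Osteoglycin (Ogn), a class III protein first described from bone, was at 7.86, 9.06, 9.23 and 9.07 on AT-I at day 2 and at 11.04, 10.48, 10.73 and 11.29 at day 4. On AT-II it was at 8.85, 9.56 and 9.94 at day 2 and at 11.15, 10.41, 11.02 and 11.03 at day 4. Day 4 lay above day 2 in every sample of a surface, with replicate 1 low at AT-I day 2 and replicate 2 low at AT-II day 4. Ogn rose by 2.08 ± 0.30 (adjusted p = 0.000345, limma) on AT-I and by 1.45 ± 0.32 (adjusted p = 0.0189) on AT-II. The AT-II call ended when any 1 of 4 samples was left out: AT-II day 2 replicate 1 (1.15, adjusted p = 0.156), the averaged sample (1.51, adjusted p = 0.0628), AT-II day 4 replicate 1 (1.37, adjusted p = 0.0694) or its replicate 3 (1.41, adjusted p = 0.0563).

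The other members did not pass. Prelp, a class II protein that binds collagen and perlecan, was at 6.29, 7.03, 6.77 and 7.39 on AT-I at day 2 and at 7.57, 7.56, 7.58 and 7.05 at day 4, where replicate 4 lay within the day 2 range. On AT-II it was at 6.82, 6.76 and 7.15 at day 2 and at 7.32, 7.68, 7.62 and 7.49 at day 4, with no overlap. The differences were 0.57 ± 0.20 (adjusted p = 0.0771, limma) and 0.62 ± 0.21 (adjusted p = 0.176). Prelp passed on AT-I when its day 2 replicate 4 was left out (0.74, adjusted p = 0.0223) and on AT-II with array weights (0.61, adjusted p = 0.0426).

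Keratocan (Kera) is a keratan sulphate proteoglycan best known from the cornea, and epiphycan (Epyc) is a class III member known from epiphyseal cartilage. Kera ranged from 4.27 to 5.10 on AT-I and from 4.28 to 4.34 on AT-II at day 2, and from 4.22 to 4.91 and from 4.03 to 4.48 at day 4. Epyc ranged from 5.19 to 6.29 and from 4.90 to 5.29 at day 2, and from 4.98 to 6.14 and from 5.00 to 5.17 at day 4. The groups overlapped throughout, and the AT-I samples of replicate 3 were the highest for both genes on both days. Those arrays had the narrowest interquartile ranges of their groups, 2.48 at day 2 and 2.60 at day 4. Both genes lay below 6.75, the median level over all genes, in every sample. The part of array spread in these values was not tested. Kera differed between days by -0.16 (adjusted p = 0.594, limma; 95% interval -0.55 to 0.23) on AT-I and by -0.03 (adjusted p = 0.977; -0.45 to 0.39) on AT-II. Epyc differed by -0.22 (adjusted p = 0.581; -0.75 to 0.31) and by -0.01 (adjusted p = 0.995; -0.58 to 0.56).

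**Figure D3:**
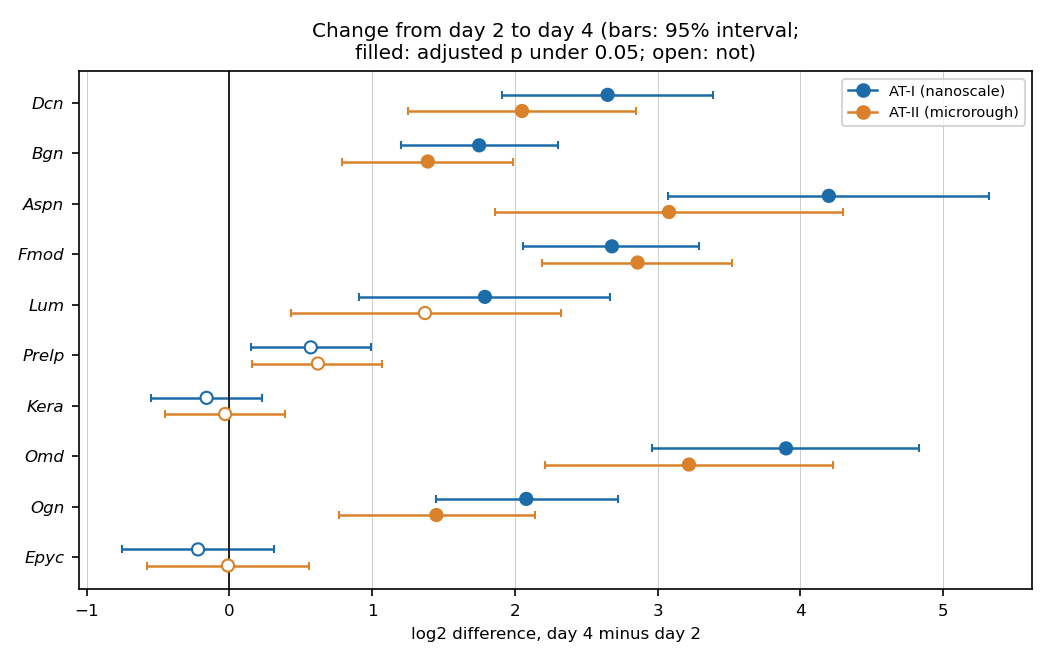
Change from day 2 to day 4 on the log2 scale for each gene on AT-I (blue) and AT-II (orange), with 95% intervals from limma; filled points passed an adjusted p of 0.05 and open points did not. Aspn and Omd lie farthest to the right, at 4.20 and 3.90 on AT-I, and Kera and Epyc lie at 0 or just below.

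Counted by samples alone, 7 of the 10 genes were higher at day 4 without overlap on AT-I, against 11.3% of all genes, and 8 of 10 on AT-II, where Prelp joined them, against 8.74% of all genes. No member was lower without overlap, against 4.01% and 7.63% of all genes. In each gene that rose on both surfaces, the 4 group means fell into a lower pair of day 2 groups and a higher pair of day 4 groups. Within each pair the neighbouring groups overlapped and their difference did not pass. Samples of a group lay closer together at day 4 than at day 2 in 7 of the 10 genes on AT-I, where 53.8% of all genes had the smaller SD at day 4, and in 9 of 10 on AT-II, where 50.3% did.

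The day 2 samples numbered 1 were the lowest of their group in 8 of the 10 genes on AT-I, against 29.1% of all genes, and in 7 of 10 on AT-II, against 39.9%. Low values in those samples were not limited to bone-forming genes. Of the 16 other gene lists described later, 10 had their lowest day 2 mean in both samples numbered 1. They included the osteoblast markers, at 6.75 on AT-I and 6.85 on AT-II, the collagens and fibril partners, at 7.87 and 8.23, and the macrophage markers, at 9.58 and 9.89. Neutrophil, erythroid, endothelial and skeletal muscle markers were among the 6 lists that did not. With both samples left out, 7 members rose on AT-I and 6 on AT-II, where 8.81% and 1.94% of all genes were called in either direction.

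The comparison of the surfaces asked whether nanoscale features changed expression. Among the 10 genes, 0 differed between AT-I and AT-II at day 2, at day 4, or in the change between the days, by limma at an adjusted p of 0.05, where 0% of all genes were called. This fit took the samples as unpaired, since which rat a replicate number stands for is not labelled. The count over all genes at day 2 depended on the setting. It was 0 of 10 members and 4.12% of all genes without AT-I day 2 replicate 2, 0 members and 12.7% with all 16 arrays counted separately, 0 members and 21.5% with array weights, and 3 members (Aspn, Ogn and Kera) and 22.2% with the replicate number as a block. At an unadjusted p under 0.05 there were also 0 members in each of the 3 comparisons, and 4701, 687 and 707 of all genes. Groups of the same day overlapped in all 10 genes on both days, while 8.83% of genes were higher and 11.3% lower on AT-I without overlap at day 2 and 0.789% and 1.41% at day 4.

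At day 2 the AT-I mean was lower than the AT-II mean for Omd by a difference of -0.78 (95% interval -1.79 to 0.23), for Aspn by -0.66 (-1.88 to 0.55) and for Ogn by -0.64 (-1.33 to 0.04). Dcn had -0.53 (-1.33 to 0.27), Bgn -0.42 (-1.02 to 0.17) and Lum -0.31 (-1.26 to 0.64). These intervals all held 0, and they leave room for differences of more than 1 log2 unit below 0 in each of the 6 genes. Fmod had 0.01 (-0.65 to 0.67) and Prelp -0.04 (-0.49 to 0.42). Kera and Epyc differed the other way, by 0.38 (-0.04 to 0.80) and 0.51 (-0.06 to 1.08). The smallest adjusted p of a member at day 2 was 0.203, for Ogn. With the array interquartile range as a covariate the difference was 0.04 for Omd, -0.15 for Kera and -0.22 for Epyc, each with its sign changed. Those of Aspn, Ogn, Dcn and Bgn kept their sign in all 26 other settings. Single samples also moved several of the day 2 differences. For Aspn the difference was -1.57 with replicate 1 of AT-II day 2 left out and -0.02 with its replicate 4 left out, and it was -0.25 with the mean of both array rows. With 1 sample left out it ranged from -1.38 to -0.40 for Omd and from -0.94 to -0.33 for Ogn, and none of these passed.

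At day 4 the differences between surfaces over the 10 genes ran from -0.17 for Fmod to 0.45 for Aspn, and the smallest adjusted p was 0.913. They were smaller in size than at day 2 in 8 of the 10 genes, all but Fmod and Prelp. For Omd the value was -0.11 (-1.04 to 0.83) and for Dcn 0.07 (-0.67 to 0.81). The surface difference in the change between days was 1.12 ± 0.78 (SE, adjusted p = 0.924, limma) for Aspn, with an interval of -0.54 to 2.77. It was 0.48 with the mean of both array rows, also 0.48 with replicate 4 of AT-II day 2 left out and 2.02 with its replicate 1 left out, and passed in none of these. For Omd it was 0.67 ± 0.65, for Ogn 0.63 ± 0.44 and for Dcn 0.60 ± 0.51, each also at adjusted p = 0.924. The rises on the surfaces were therefore not shown to differ in size.

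**Figure D4:**
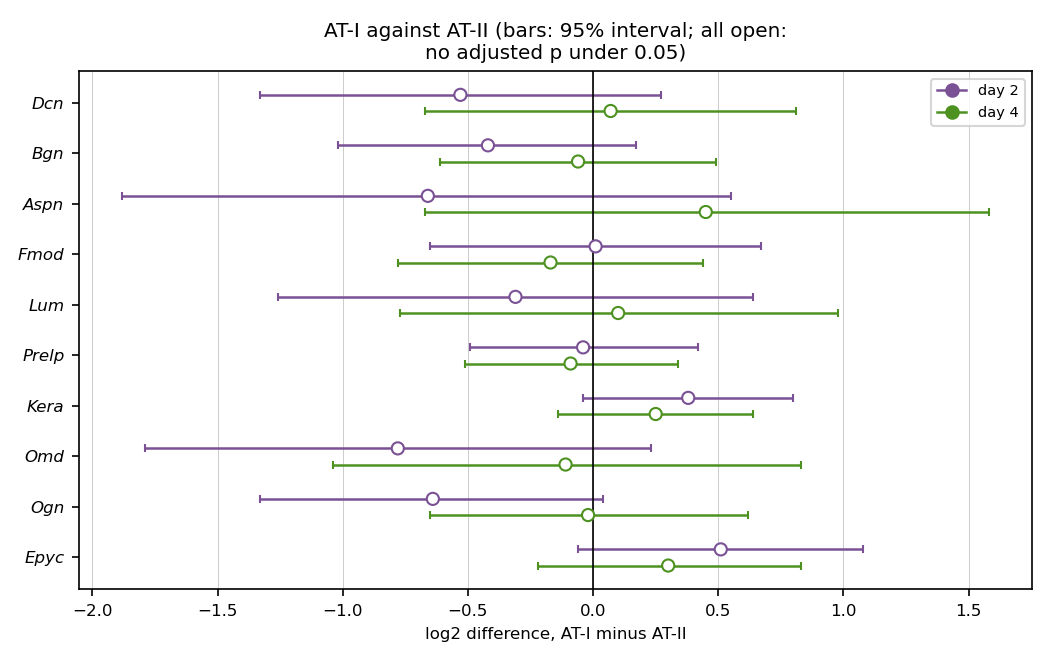
Difference between surfaces, AT-I minus AT-II, on the log2 scale for each gene at day 2 (purple) and day 4 (green), with 95% intervals from limma. All points are open because 0 of the 10 genes passed, and every interval holds 0, the widest being Aspn at day 2 from -1.88 to 0.55.

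Most members sit in clusters, and the order of genes was read from the RefSeq table of GRCr8. Ogn, Omd and Aspn lie next to each other on chromosome 17, Dcn, Lum, Kera and Epyc on chromosome 7, and Prelp and Fmod on chromosome 13, while Bgn lies alone on chromosome X. On chromosome 17 all 3 members rose on both surfaces, and the measured flanking genes Iars1, Nol8 and Ippk had differences of 0.26, 0.49 and -0.02 on AT-I and of -0.10, 0.09 and -0.18 on AT-II, none past the threshold. On chromosome 7 Dcn and Lum stood beside Kera and Epyc, which did not pass. The genes directly flanking this cluster, Btg1 and Ccer1, had 0.00 and -0.21 on AT-I and -0.01 and -0.10 on AT-II, none past the threshold. Farther out, Eea1 and Atp2b1 rose on AT-I by 0.51 (adjusted p = 0.0226, limma) and 0.37 (adjusted p = 0.0495). Those calls ended with arrays centred on their medians among other settings, and both genes had 0.11 on AT-II. On chromosome 13 Fmod rose and its neighbour Prelp did not pass, and Optc, which encodes another member of the wider family, had -0.43 (adjusted p = 0.117) on AT-I and -0.21 on AT-II. Around Bgn the flanking genes Haus7 and Atp2b3 had 0.32 and -0.37 on AT-I, neither past the threshold. None of the flanking genes passed on AT-II.

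**Figure D5:**
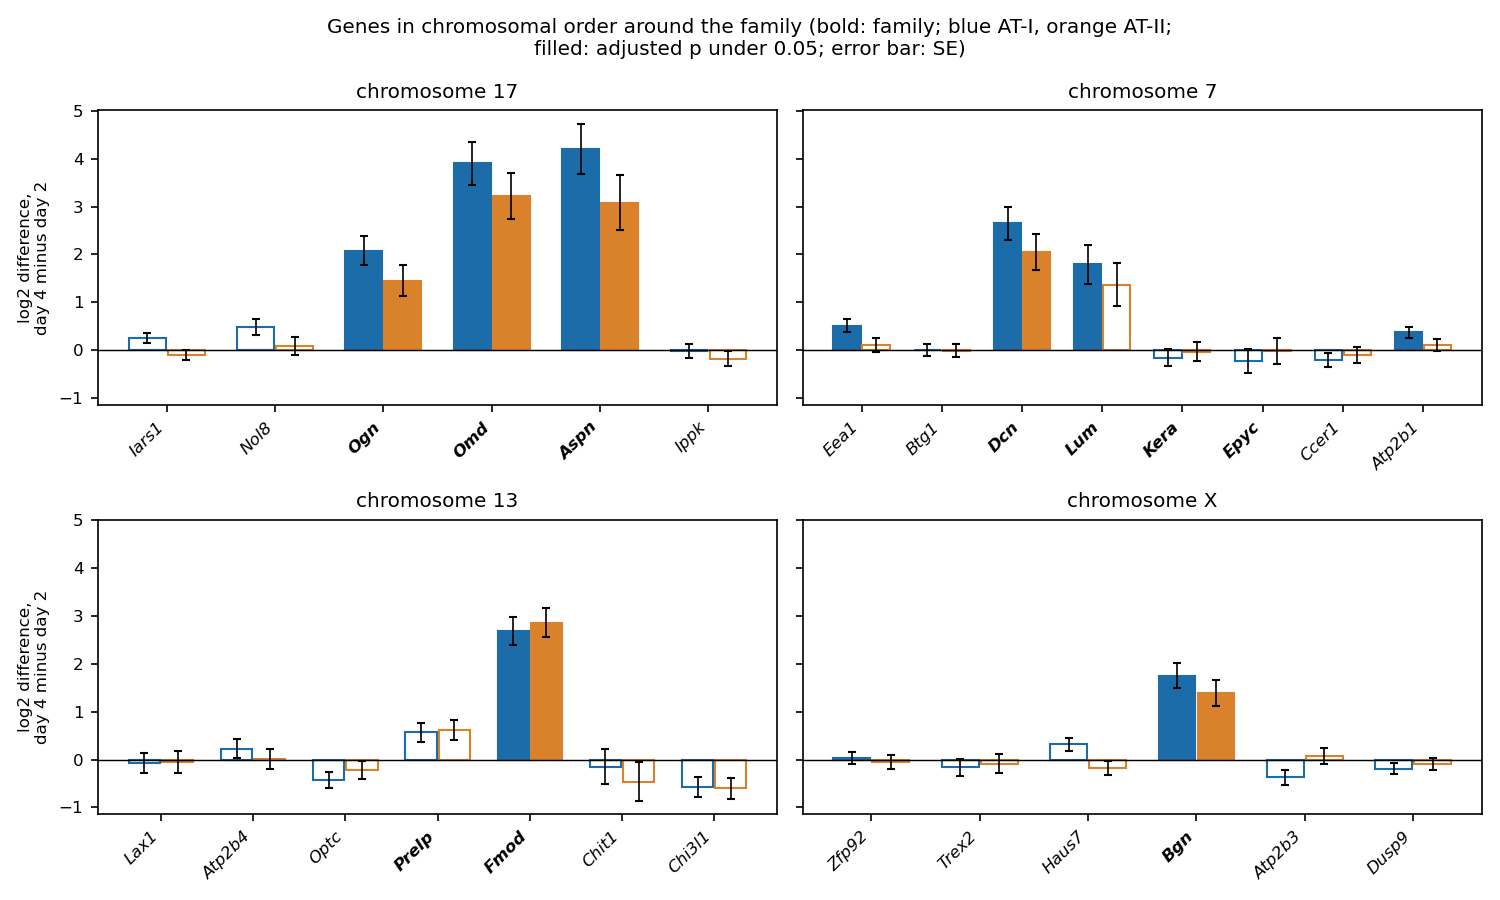
Change from day 2 to day 4 on the log2 scale for the 10 genes (bold) and those of the 3 nearest annotated genes on each side that have an array row, in chromosomal order, for AT-I (blue) and AT-II (orange), with bars for the difference, error bars for the SE, and filled bars where the adjusted p was under 0.05. Ogn, Omd and Aspn stand at 1.45 to 4.20 between flanking genes within 0.49 of 0, and Kera and Epyc lie beside Dcn and Lum near 0.

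Members were also compared by the course of their values over the 15 samples, as the root mean square (RMS) difference after centring each gene on its own mean, where a small value is a close match. The measure is not scaled, so it is smaller for genes that vary little and does not rank members against each other. This is a description over samples that share days and arrays. Aspn was nearest to Smpd3, a sphingomyelinase of mineralising tissue (0.466), Panx3, a channel protein of osteoblasts (0.496), and Slc13a5, a citrate transporter (0.553). Omd was nearest to Dmp1, a mineralisation protein of osteocytes (0.389), Phex, an endopeptidase of phosphate control (0.408), and Mmp16 (0.471). Because the measure is not scaled, it picks genes with day changes of a size like those of Aspn and Omd. The day changes of the genes named here ran from 3.06 for Mmp16 to 4.24 for Phex on AT-I. For Aspn only the row used was compared.

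Fmod was nearest to Ifitm5, an osteoblast membrane protein (0.259), to Col11a1 (0.296) and to Adamts2, the procollagen N-proteinase (0.306). Dcn was nearest to Serpinf1, which encodes the secreted protein PEDF (0.226), Fgfr2 (0.237) and Mmp2 (0.263). Bgn was nearest to Vkorc1, an enzyme of vitamin K recycling (0.117), Maged1 (0.124) and P3h1, a collagen prolyl hydroxylase (0.126), and Lum to Postn, which encodes periostin (0.170), Copz2 (0.210) and Col1a1 (0.217). Ogn was nearest to Gja1, the gap junction protein connexin 43 (0.146), Clec11a (0.175) and Pls3 (0.192).

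Other genes of the pathway, and then markers of cell types, are given by list. Beside all their counts, 8.84% of all genes rose and 2.66% fell on AT-I, and 3.13% rose and 0.203% fell on AT-II. Leaving out samples moved the share over all genes too. On AT-II the share called in either direction went from 3.33% to 1.29% without AT-II day 2 replicate 1. It was 1.7% without the averaged sample, and 1.81% and 2.05% without replicate 1 and replicate 3 of AT-II day 4. Of 18 measured collagens and fibril partners, 13 rose and 0 fell on AT-I and 9 rose and 0 fell on AT-II, with median changes of 1.39 and 1.18. Col11a1, a fibrillar collagen of cartilage and bone, rose by 2.69 ± 0.33 and 2.65 ± 0.35, and Lox, the collagen cross-linking enzyme, by 2.05 ± 0.29 and 1.77 ± 0.31, on AT-I and AT-II. Pcolce, an enhancer of procollagen processing, rose by 2.03 ± 0.36 and 1.90 ± 0.38, the second not past the threshold without AT-II day 2 replicate 1. The AT-II count became 2 on leaving out AT-II day 2 replicate 1, 4 on leaving out the averaged sample, and 5 on leaving out replicate 1 or replicate 3 of AT-II day 4.

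Of 25 genes that build the linkage and the chondroitin or dermatan sulphate chain, 10 rose on AT-I and 7 on AT-II and 0 fell, with medians of 0.41 and 0.34. Chsy3, a chondroitin synthase, rose by 1.56 ± 0.21 and 1.44 ± 0.23, Papss2, which makes the sulphate donor, by 1.57 ± 0.21 and 1.14 ± 0.23, and Dsel, which is related to the dermatan sulphate epimerase, by 1.71 ± 0.28 and 1.34 ± 0.30. On AT-II Papss2 passed in 25 of 26 other settings and Dsel in 20. The Dsel call there ended without the averaged sample and without replicate 1 or 3 of AT-II day 4, among others. The AT-II calls of both genes ended without AT-II day 2 replicate 1. The AT-II count was then 2, it was also 2 without the averaged sample, 3 without the first replicate of AT-II day 4, and 4 without both day 2 samples numbered 1. Of 9 genes of keratan sulphate synthesis and tyrosine sulphation, 3 rose on AT-I, Chst2, a sulphotransferase, by 0.88 ± 0.18 (adjusted p = 0.00435, limma), B4galt4 and Fut8. On AT-II 0 of 9 were called, with 2 at an unadjusted p under 0.05. The AT-I count was 1 with replicate 1 or 4 of day 2 or replicate 2 or 4 of day 4 left out, and under either other array scaling.

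Of 13 proteinases known to cut these proteoglycans or their precursors, 6 rose on AT-I and 4 on AT-II and 0 fell. Mmp2, a gelatinase, rose by 2.71 ± 0.37 and 2.50 ± 0.40, and Bmp1, which removes the propeptide of procollagen and of several of these core proteins, by 1.89 ± 0.22 and 1.54 ± 0.24. The AT-II count was 2 without AT-II day 2 replicate 1. Of 20 growth factors and receptors that these proteoglycans bind or act through, 4 rose and 1 fell on AT-I. On AT-II 1 rose and 0 fell, near the share of all genes that rose there (3.13%). Ccn4, a matricellular Wnt target, rose by 1.83 ± 0.26 and 1.70 ± 0.28, or by 0.95 and 0.85 with the mean of its array rows. The AT-II count was 2 without AT-II day 4 replicate 4. The gene that fell on AT-I was Tlr2, a Toll-like receptor, at -0.89 (adjusted p = 0.0214, limma), named after its value was seen, and its call ended without AT-I day 4 replicate 1.

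Other leucine-rich proteoglycans had 5 measured genes, with median changes of -0.01 on AT-I and 0.12 on AT-II. Of these 2 rose on AT-I and 1 on AT-II, and 0 fell. Differences were below 0 in 3 of the 5 on AT-I and in 2 on AT-II. Tsku, which encodes tsukushi, rose by 1.56 ± 0.14 on AT-I and 1.37 ± 0.15 on AT-II, and Podnl1 rose by 1.65 ± 0.30 on AT-I and had 1.19 ± 0.33 on AT-II (adjusted p = 0.0617, limma). With replicate 1 or 3 of AT-I day 2, or replicate 4 of AT-II day 2, left out, Podnl1 passed on AT-II and the count there was 2. Of 19 other proteoglycans, 6 rose and 1 fell on AT-I and 5 rose and 0 fell on AT-II, with medians of -0.12 and 0.05. Sdc3, a cell surface syndecan, rose by 1.42 ± 0.15 and 1.26 ± 0.16, and Hspg2, which encodes perlecan, by 1.30 ± 0.17 and 1.02 ± 0.18. The gene that fell was Prg4, which encodes lubricin, at -0.75 (adjusted p = 0.0306) on AT-I, named after its value was seen. Its call ended with replicate 1 or 3 of day 2, or replicate 1, 2 or 4 of day 4, left out on that surface. The AT-II count was 2 without the averaged sample and with arrays centred on their medians. It was 3 with replicate 1 of AT-II day 2, or replicate 1, 2 or 3 of AT-II day 4, left out.

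Markers of cell types that could make these proteins moved over the same days. All 8 osteoblast markers rose on AT-I and 7 of 8 on AT-II, against 8.84% and 3.13% of all genes, and 0 fell. Their mean ranged from 6.75 to 7.83 on AT-I and from 6.85 to 8.20 on AT-II at day 2, and from 9.77 to 10.48 and from 9.77 to 10.57 at day 4. Of 7 mesenchymal stromal and fibroblast markers 4 rose on AT-I and 1 on AT-II, Pdgfra by 2.23 ± 0.21 and 1.64 ± 0.23. The stromal mean ranged from 7.81 to 8.54 and from 8.40 to 8.98 at day 2, and from 9.17 to 9.46 and from 9.16 to 9.45 at day 4. The stromal count on AT-II was 3 when AT-II day 2 replicate 4 was dropped and 2 when replicate 1 or 3 of AT-I day 2 was. The part of osteoblast and stromal cell numbers in the rise of the proteoglycans was not tested.

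Chondrocyte markers rose in 2 of 7 on AT-I and 3 of 7 on AT-II, and tendon and ligament markers in 2 of 4 on each surface. Thbs4, a thrombospondin of tendon, rose by 2.21 ± 0.47 and 2.60 ± 0.50. On AT-II the chondrocyte count was 1 on leaving out the averaged sample, replicate 1 of AT-II day 2, replicate 1, 3 or 4 of AT-II day 4, replicate 2 or 4 of AT-I day 2, or replicate 2 of AT-I day 4. The tendon count there was 0 when AT-II day 2 replicate 1 was dropped, and 1 when the averaged sample or any 1 AT-II day 4 replicate was. The chondrocyte mean ranged from 5.77 to 6.23 over day 2 samples and from 6.24 to 6.62 over day 4 samples, and the tendon mean from 5.21 to 5.65 and from 5.87 to 6.53. Of 8 neutrophil, 7 macrophage and 5 skeletal muscle markers, 1 each fell on AT-I (Csf3r, Fcgr1a and Pvalb, with Fcgr1a passing in 10 of 26 other settings) and 0 were called on AT-II, where 2, 0 and 1 had an unadjusted p under 0.05. Of 7 erythroid and 6 endothelial markers 0 were called on either surface, with 0 and 2 at an unadjusted p under 0.05 on AT-I and 0 and 0 on AT-II. Endothelial markers called on AT-I numbered 2 without AT-II day 2 replicate 1, and 1 on leaving out replicate 1 of AT-I day 2 or replicate 2 or 3 of AT-I day 4. The neutrophil mean ranged from 11.13 to 12.05 over day 2 samples and from 10.93 to 11.67 over day 4 samples.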

How the data were processed

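RNA was hybridised to Affymetrix whole-transcript rat arrays, per the labels' protocols. Per the submitters' processing notes, the values that the authors deposited came from RMA run in Affymetrix Expression Console, and they are taken as log2 expression because RMA returns that scale. Software versions, filters and the build were not given in the sources used here. RMA fits probes over all arrays together and compresses low values, which understates changes of dim genes.

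Of 29214 array rows, 18644 named 1 gene through the platform annotation and gave 17245 genes. Another 962 rows named several genes and 9608 none, and these were not used. For the 879 genes with several rows, the brightest was taken. Groups came from the sample titles.

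limma 3.58.1 in R 4.3.3 (lmFit on 4 group means, eBayes, two-sided, 11 residual and 4.44 prior degrees of freedom) tested all genes in 15 samples, with Benjamini-Hochberg adjustment over all of them and a threshold of 0.05. Which rat a replicate number stands for is not said in the labels. The members, the gene lists and the alternatives were chosen with earlier results of these data known. Genes named from a list are among those with the smallest p in a day comparison. Flanking genes are those of the nearest 3 annotated genes on each side that have a row, and likeness names the nearest 3 genes. In all, 26 other settings were run (15 leave out 1 sample each). The scripts were tested on simulated data. Promoter windows and gene order are from RefSeq (GRCr8). Python 3.11.15, pandas 2.3.3 and numpy 2.4.6 made the tables.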

Additional observations from a re-analysis of the deposited data

Results flagged for a closer look

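Of the 30 combinations of member and group with 4 samples, 4 held a sample whose gap to the nearest other was over 0.829 of the group's range, Dixon's critical value for 4 samples, and chance alone marks about 1 group in 20. Ogn was at 7.86 in AT-I day 2 replicate 1, with the other samples at 9.06 to 9.23. Dcn was at 8.15 in the same sample, with the others at 9.75 to 9.98. Ogn was at 10.41 in AT-II day 4 replicate 2, with the others at 11.02 to 11.15. Prelp was at 7.05 in AT-I day 4 replicate 4, with the others at 7.56 to 7.58.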

How the results depend on the processing

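The 50 member differences, each refitted under the other settings (26 in all), gave 1280 values. Of these values, 0 reversed a call, 8 no longer passed and 7 passed newly, and 70 that passed in neither setting changed sign. The 8 belonged to Ogn, Bgn and Dcn on AT-II and to Lum on AT-I, all between the days. On AT-I between the days, 1983 genes became 1060 with only the 2 groups compared and 1314 with the array interquartile range as a covariate, and 1158 to 2954 when 1 sample was left out. On AT-II 575 became 1228 with array weights, 334 without both day 2 samples numbered 1, and 223 to 694 when 1 sample was left out (223 when AT-II day 2 replicate 1 was, 294 when the averaged sample was). Members called on AT-II went from 6 to between 3 and 7 with 1 sample left out, and on AT-I from 7 to between 7 and 8. Between the surfaces at day 2, 0 genes became 2193 with all 16 arrays counted separately, 1 with quantile normalization, 3713 with array weights, and between 0 and 711 with 1 sample left out (711 without AT-I day 2 replicate 2). Members stayed at 0 in these settings. Quantile normalization gave 65.6% of AT-I calls as higher. Kera and Epyc were left out by the filter on low values. The causes were not tested. Same-numbered samples deviated together with r = 0.724, 0.389, -0.119 and 0.199 at day 2 and 0.696, -0.237, 0.344 and -0.161 at day 4. Between differently numbered samples r ran from -0.636 to 0.82, the latter for AT-I replicate 3 and AT-II replicate 4 at day 2. The numbers were therefore not taken to pair samples. Whether differently numbered samples shared a rat was not tested. With 16 arrays and a replicate block, 3823 genes and 3 members passed between surfaces at day 2: Aspn -0.80 (adjusted p = 0.0257, limma), Ogn -0.67 (adjusted p = 0.0244) and Kera 0.38 (adjusted p = 0.0493). The block changed no other member count.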
